A study of Drosophila melanogaster with 8 samples.

Results

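The 10 genes described here are the core of male dosage compensation and of the sex determination switch in Drosophila. They are the noncoding RNAs roX1 and roX2, the MSL proteins msl-1, msl-2, msl-3, mle and mof, and the switch genes Sxl, dsx and fru. They were taken by gene name from the expression tables, and 10 of 10 were found among the 13989 genes listed. RNA was sequenced from pools of about 10 pupal CNS in 4 groups of 2 biological replicates. Wild type animals were Canton S. Knockdown animals had the genotype ElavC155GAL4; dStimRNAi/tubulinGAL80ts, in which the X-linked elav driver expresses an RNAi transgene against dStim, the ER calcium sensor, in neurons once the heat-sensitive GAL80 repressor is off. Flies were reared at 25 °C and knockdown was at 29 °C for 24 h. Both temperatures are listed for all 4 groups, with a knockdown time of 0 h in wild type. Whether wild type pupae were also moved to 29 °C is not clear from this. Both genotypes were sampled at 36 h after puparium formation (APF), right at the end of knockdown, and at 72 h APF, after 36 h of recovery in the knockdown animals. Canton S carries none of these transgenes, so genotype background and knockdown cannot be told apart. The labels do not give the sex of the pupae in a pool.

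In male flies a complex of MSL proteins and roX RNA coats the single X chromosome and raises transcription of its genes, which balances it with the autosomes. In females the RNA-binding protein Sxl blocks translation of msl-2, so the complex does not form and the roX RNAs, which are stable only within it, are scarce. Sxl also directs splicing of tra, and Tra in turn directs the sex-specific splicing of dsx and fru, whose transcription factors shape the sexually dimorphic body and nervous system. The values used here are per gene, so male and female splice forms of Sxl, dsx and fru are summed.

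Each level is an FPKM, a fragment count divided by transcript length and sequencing depth, that the authors' CuffDiff run gave for a group as 1 value pooled over its replicates. No spread between replicates and no depth per library accompanies these values, so no difference below was tested, and each is a description of the pooled values. A log2 ratio compares the FPKM of 2 groups, with no pseudocount. A gene is counted as higher or lower where its ratio was at least 2-fold, among genes with a mean FPKM of at least 1 over the 4 groups and a value above 0 in both groups compared. All 10 genes met this. In bulk tissue, fewer cells of a type and less RNA per cell cannot be told apart. The CNS label was matched by neuron markers, with 7 of 7 (elav, n-syb, Syt1, brp, para, Syn and Cha) at an FPKM between 15.2 and 1208 in every group. Fat body markers were present at a lower level, with 6 of 6 between 2.18 and 58.1, and the 3 gonad markers vas, nos and bgcn reached at most 0.304. These 3 do not cover genes of late spermatogenesis, which reached 23.9, for Mst84Da, in wild type at 72 h. Low gonad markers therefore do not show that gonad RNA was absent.

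The clearest difference among the 10 genes was in the roX RNAs at 72 h. Both were at similar levels in wild type and knockdown CNS at 36 h, and both were lower in knockdown CNS after recovery than in wild type of the same age.

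roX1 (FBgn0019661, X 3752929 to 3756720 of dm3), a long noncoding RNA of the MSL complex, had an FPKM of 301 in the wild type against 294 under knockdown at 36 h. At 72 h its FPKM was 244 in the wild type against 108 in the recovery group. The recovery group thus stood apart from the other 3, which lay within a range of 244 to 301. The log2 ratio of knockdown over wild type was -0.04 at 36 h and -1.17 at 72 h, where roX1 was 2.25-fold lower.

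roX2 (FBgn0019660, X 11473089 to 11474467 of dm3), the shorter and partly interchangeable partner of roX1, had the same order of groups. Its FPKM was 72.6 in the wild type against 63.1 under knockdown at 36 h, then 49.9 in wild type and 14.7 in the recovery group at 72 h. The log2 ratio was -0.20 at 36 h and -1.77 at 72 h, a 3.4-fold lower level. The difference at 72 h was thus larger for roX2 than for roX1, and the level of roX1 over that of roX2, both per length, was 4.15, 4.67 and 4.89 in the first 3 groups and 7.38 in the recovery group.

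Of the 10 genes, roX1 and roX2 were the 2 that were at least 2-fold lower at 72 h, and none was at least 2-fold higher. Among all 9474 genes compared at 72 h, 5.55% were as much lower and 2.14% as much higher. Lower genes were mostly of low level. With a mean FPKM of at least 5, which includes both roX RNAs, 2.76% were at least 2-fold lower. Among the X-linked genes with a mean FPKM of at least 1, 4.77% were, beside the 5.55% of all genes at this filter. A ratio as low as that of roX1 or lower was found for 4.56% of the genes, and 2.7% had one as low as that of roX2. At 36 h none of the 10 genes reached 2-fold in either direction, against 2.3% of all genes higher and 3.55% lower. From 36 h to 72 h the ratio of roX1 moved by -1.14 and that of roX2 by -1.56 on the log2 scale, and 5.85% of all genes moved down by at least 1.

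**Figure D1:**
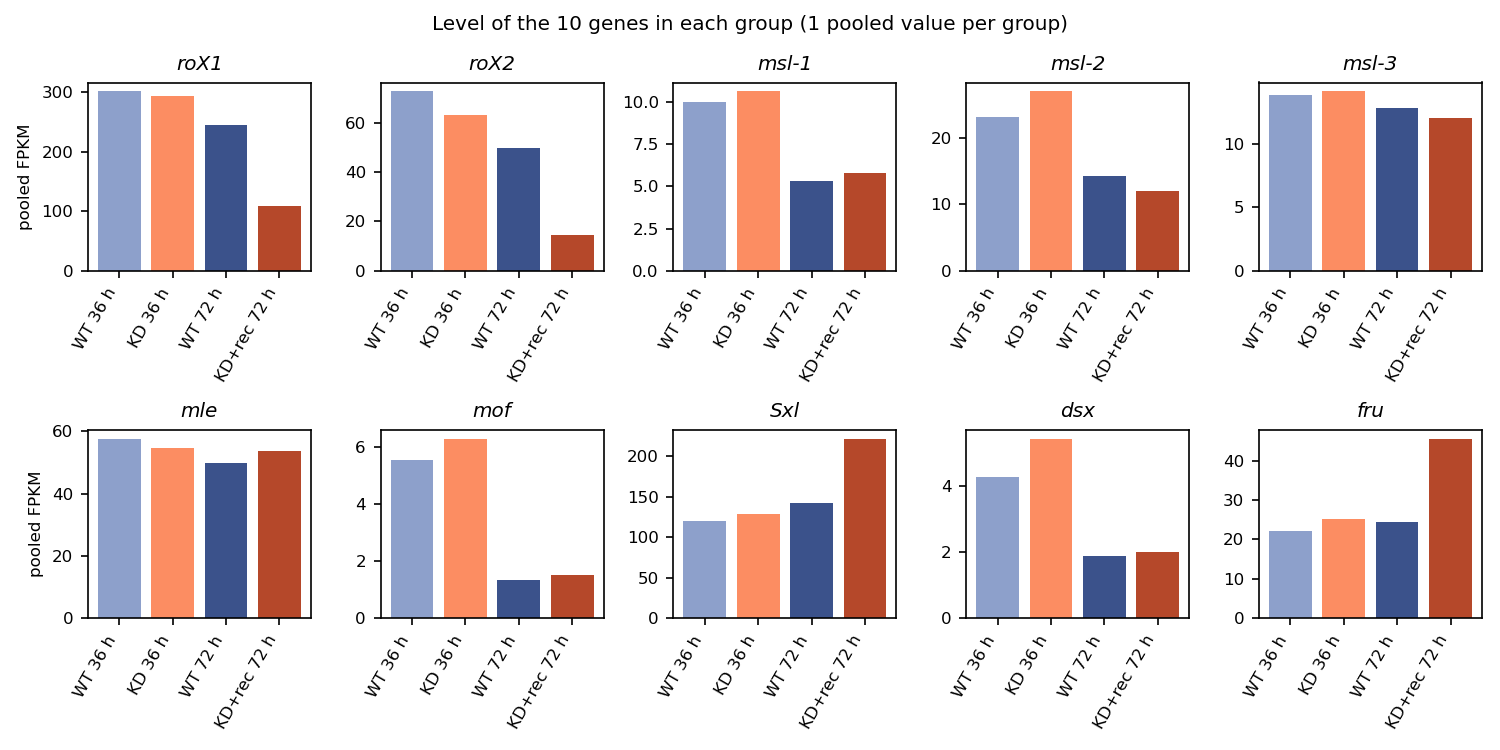
Pooled FPKM (vertical axes, from 0, with a scale of its own for each gene) of the 10 genes in the 4 groups, wild type (WT) and knockdown (KD) at 36 h and wild type and knockdown with recovery (KD+rec) at 72 h. Bars are single pooled values without error bars. roX1 and roX2 are lowest in the recovery group, at 108 and 14.7, while Sxl and fru are highest there, at 221 and 45.5.

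**Figure D2:**
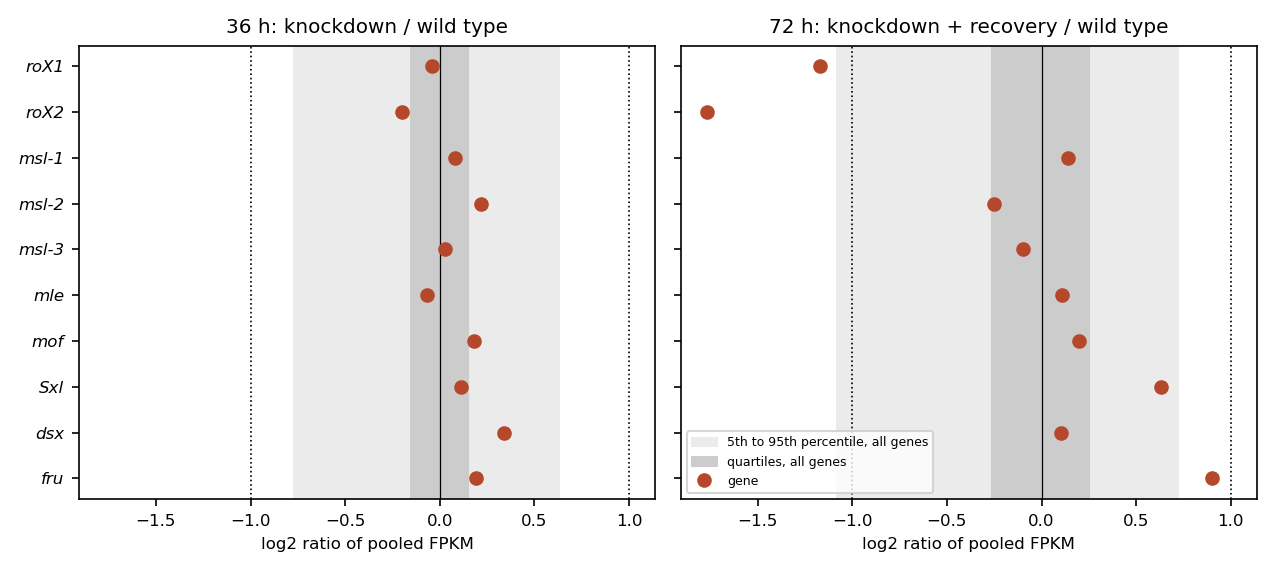
Log2 ratio of pooled FPKM, knockdown over wild type (horizontal axis), for each of the 10 genes (points) at 36 h (left) and 72 h (right). Grey bands give the quartiles and the 5th to 95th percentiles of all genes compared, and dotted lines mark 2-fold. At 36 h every point lies between -0.20 and 0.34, whereas at 72 h roX1 at -1.17 and roX2 at -1.77 lie below the lower band edge of -1.08 and fru at 0.90 lies above the upper edge of 0.72.

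Other RNAs known from males differed between the groups at 72 h, in a pattern unlike that of the roX RNAs. A list of 10 genes with male-biased expression outside the CNS, mostly of sperm development, had a summed FPKM of 0.753 in the wild type against 2.71 under knockdown at 36 h. At 72 h the sum was 77.3 in wild type and 0.184 in the recovery group. This RNA was thus high in the wild type at 72 h and low in every other group, lowest in the recovery group. The roX RNAs, by contrast, were also high in both groups at 36 h. Mst84Da, a gene of late spermatogenesis, had an FPKM of 23.9 in wild type at 72 h and was listed at 0 in the recovery group, and the values of Mst87F were 20.4 and 0. Mst84Db was at 17.9 and 0, and Mst98Ca at 7.61 and 0.041.

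Of 12 Y-linked genes on a further list, 8 were found in the tables. In wild type at 72 h, 8 of 8 were above 0, with an FPKM of 0.00918 to 0.167. In each of the other 3 groups, 8 of 8 were listed at 0. Of all 13989 genes, 12669 were above 0 in wild type at 72 h and 12053 in the recovery group. At 36 h, 12356 were above 0 in wild type and 12395 under knockdown. The tables place 7 genes on the Y itself, and of these 6 were above 0 in the wild type at 72 h, 1 in knockdown CNS at 36 h, at 0.084, and 1 in the recovery group, at 0.0331. The largest of these low values was that of Pp1-Y2, a phosphatase gene, at 0.167, followed by Ory at 0.134. These genes are known for expression in the male germline. The roX RNAs were at a high level in both groups at 36 h, where the 8 listed Y-linked genes were at 0. For germline genes, a value of 0 in CNS does not give the sex of the pupae. A link between roX and Y-linked RNA was not tested.

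The genes Yp1, Yp2, Yp3, fit and Fbp1, expressed mainly in the fat body, were listed as female-biased. Their summed FPKM was 26.1 in wild type and 21.8 in the recovery group at 72 h. The list was split, since Fbp1, a receptor for storage proteins, was at 23.5 and 18.7 and makes up most of the sum. The sum therefore mainly follows Fbp1, whose bias by sex was not tested. The yolk protein genes had the opposite order, with Yp1 at 0.979 and 1.18, Yp2 at 0.856 and 1.05 and Yp3 at 0.717 and 0.852. At 36 h the sum was 15.3 in the wild type against 29.3 in knockdown CNS, of which Fbp1 made up 12.4 and 22.3. Yp3 had an FPKM of 1.77 and 5.93 at 36 h, a log2 ratio of 1.75. The fat body markers had a median log2 ratio of -0.41 at 72 h. The share of males in each pool is not known, so a pool with fewer males and less roX RNA per male cannot be told apart, and the part that tissue from outside the CNS had in the roX values was not tested.

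**Figure D3:**
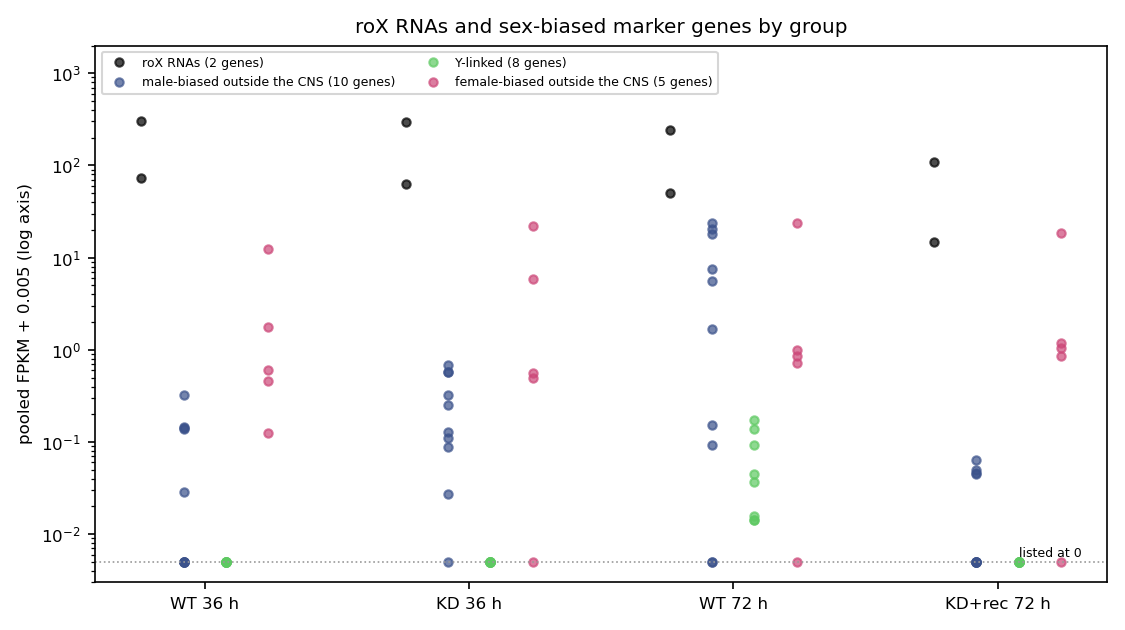
Pooled FPKM plus 0.005 (log vertical axis, so that a value of 0 lies on the dotted line) in the 4 groups for the roX RNAs, 10 male-biased genes, 8 Y-linked genes and 5 genes listed as female-biased, 1 point per gene. Male-biased genes reach 23.9 and Y-linked genes 0.167 in wild type at 72 h, and in the recovery group they reach 0.0583 and 0.

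The genes of the MSL proteins lay within 2-fold between genotypes at each age, as most genes did. Their summed FPKM was 110 in the wild type against 113 under knockdown at 36 h, and 83.5 and 85 at 72 h. Of the 5 genes, 0 reached 2-fold at either age, a count near the background for so short a list. Over all genes 2.3% were higher and 3.55% lower at 36 h, and 2.14% and 5.55% at 72 h. The median log2 ratio of the 5 genes was 0.08 at 36 h and 0.11 at 72 h, beside medians of 0.00 and -0.01 over all genes. Relative to genes of similar length the median at 72 h was -0.04, so its sign depends on the scale.

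msl-2 (FBgn0005616, 2L 3462216 to 3466111 of dm3), the limiting subunit that is made as protein in males, had an FPKM of 23.1 in the wild type against 27 under knockdown at 36 h. At 72 h its FPKM was 14.3 in the wild type against 12 in the recovery group. Its log2 ratio was 0.22 at 36 h and -0.25 at 72 h, so that knockdown was the higher group at 36 h and the lower one at 72 h. Among the 5 proteins this was the lowest ratio at 72 h, and 26.7% of all genes had one as low or lower.

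mle (FBgn0002774, 2R 1862243 to 1868277), the RNA helicase that remodels roX RNA, had the highest FPKM of the 5 in every group. Its values were 57.6 and 54.8 at 36 h and 49.8 and 53.6 at 72 h, wild type first. With age its log2 ratio was -0.21 in wild type and -0.03 in knockdown animals. msl-1 (FBgn0005617, 2L 18683720 to 18688796), the scaffold of the complex, was at 9.96 and 10.6 at 36 h and at 5.28 and 5.81 at 72 h. It was thus lower at 72 h in both genotypes, with little between them at either age.

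msl-3 (FBgn0002775), the chromodomain subunit that reads a histone mark of active genes, had values between 12 and 14.1 in the 4 groups. In the tables msl-3 shares its locus on 3L with form3, so reads of these genes may not be fully separated. mof (FBgn0014340, X 5767868 to 5770884), the histone H4 lysine acetyltransferase of the complex, had the lowest FPKM of the 5 in every group. Its FPKM was 5.53 in the wild type against 6.27 under knockdown at 36 h, and 1.33 and 1.53 at 72 h. The level of mof therefore separated the ages and not the genotypes, with log2 ratios of knockdown over wild type of 0.18 and 0.20. The level of mle over that of mof, both per length, was 10.4 and 8.75 at 36 h and 37.3 and 35.1 at 72 h.

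Sxl and fru were higher in the recovery group than in wild type at 72 h, by less than 2-fold. Sxl (FBgn0264270, X 6969698 to 6992086), the female switch gene whose transcripts occur in both sexes, had an FPKM of 120 in the wild type against 129 under knockdown at 36 h. At 72 h it was at 142 in wild type and 221 in the recovery group, the highest of the 4 values. Its log2 ratio was 0.11 at 36 h and 0.63 at 72 h, or 1.55-fold higher. As roX1 was lower in the same group, Sxl was the most abundant of the 10 genes in the recovery group, and roX1 was in the other 3. The level of Sxl over that of roX1, both per length, was 0.397, 0.438 and 0.583 in those 3 groups and 2.04 in the recovery group.

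fru (FBgn0004652, 3R 14242315 to 14371308), a family of zinc finger transcription factors of which one set is specific to male neurons, had an FPKM of 22.1 in the wild type against 25.2 under knockdown at 36 h. At 72 h the FPKM was 24.4 in the wild type against 45.5 in the recovery group. The first 3 values lay close together and the recovery group was above them, with a log2 ratio of 0.19 at 36 h and 0.90 at 72 h. A ratio as high as that of fru or higher was found for 2.85% of all genes at 72 h, and 6.81% had one as high as that of Sxl. At least 1.5-fold higher were 2 of the 10 genes, Sxl and fru, and 8.2% of all genes.

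The neuron markers moved in the same direction as Sxl and fru at 72 h. Of the 7 markers, 7 were above wild type in the recovery group, with log2 ratios from 0.34 to 0.78 and a median of 0.55, against a median of 0.06 at 36 h. The ratio of Sxl exceeded this median by 0.08 and that of fru by 0.35, whereas roX1 lay 1.72 and roX2 2.32 below it. The glia markers that passed the filter had a median log2 ratio of 0.23 at 72 h.

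Long transcripts also had higher ratios at 72 h. The median log2 ratio was -0.25 among the 2331 genes with the shortest transcripts and 0.29 among the 2328 with the longest, compared with -0.07 and 0.08 in the same split at 36 h. The longest transcript has 8399 nt for fru, 5964 nt for Sxl, 4832 nt for roX1 and 1368 nt for roX2. Relative to genes of similar length, the log2 ratio at 72 h was 0.40 for fru and 0.28 for Sxl, and between 0.05 and 0.27 for the 6 neuron markers with a known length. It was -1.45 for roX1 and -1.57 for roX2, closer to each other than as deposited. The deposited locus of roX1 spans 3792 nt, less than the 4832 nt used for centring. The centred value of roX1, and with it this closeness, is therefore uncertain. The part that transcript length and neuronal content had in these ratios was not tested.

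**Figure D4:**
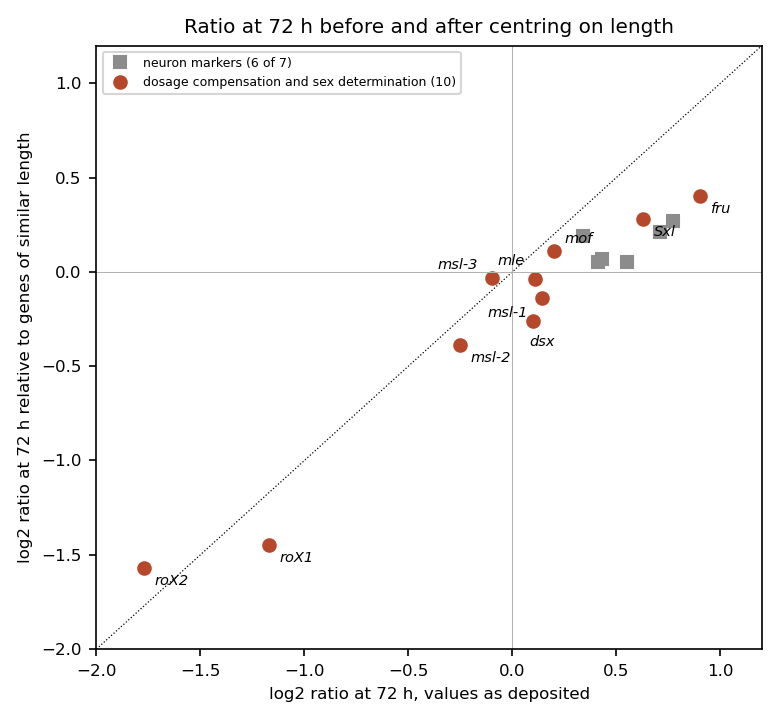
Log2 ratio of knockdown with recovery over wild type at 72 h, as deposited (horizontal axis) and relative to genes of similar transcript length (vertical axis), for the 10 genes and 6 neuron markers, with a dotted line of equality. fru and Sxl move from 0.90 and 0.63 to 0.40 and 0.28, just above the highest neuron marker at 0.27, and roX1 and roX2 remain the lowest points at -1.45 and -1.57.

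dsx (FBgn0000504), the transcription factor gene at the end of the somatic pathway, was at a low level. Its FPKM was 4.27 in the wild type against 5.42 under knockdown at 36 h, and 1.88 and 2.01 at 72 h. The groups were thus ordered by age, and the log2 ratio between genotypes was 0.34 at 36 h, the highest of the 10 genes, and 0.10 at 72 h. In the tables dsx shares its locus on 3R with lds, so the reads of these genes may not be fully separated.

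The genes that act beside the switch lay within 2-fold between genotypes, as most genes did. tra, the splicing factor gene downstream of Sxl, had an FPKM of 48.1 and 39.4 at 36 h and of 17.5 and 14.7 at 72 h, wild type first. In the tables tra shares its locus with spd-2, l(3)73Ah and CG32163. tra2, the partner of Tra in splicing, was at 37.4 and 36.8 at 36 h and at 26.9 and 26.5 at 72 h. Of the 4 partners tra, tra2, ix and her, 0 reached 2-fold between genotypes at either age. This is near the background for so short a list, with 5.55% of all genes lower and 2.14% higher at 72 h. The median log2 ratio of the 4 was -0.03 at 36 h and -0.08 at 72 h. Relative to genes of similar length the median at 72 h was 0.11, so its sign depends on the scale.

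Of 14 regulators (activators and repressors) and splicing cofactors of Sxl, 13 were found and 10 passed the filter on level. Among these 10, 0 reached 2-fold between genotypes at either age, a count near the background for so short a list. Their log2 ratios at 72 h ran from -0.36 for dpn to 0.41 for da. The spliceosomal protein gene snf, which takes part in Sxl autoregulation, was at an FPKM of 178 and 169 at 36 h and 97.5 and 85.6 at 72 h. The embryonic activator sisA was at most at 0.229 in any group.

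Of the partners of the MSL complex, 0 of 11 genes were past 2-fold between genotypes, a count near the background for so short a list. Their median log2 ratio was 0.09 at 36 h and 0.18 at 72 h. Clamp (listed as CG1832), the zinc finger protein that brings the complex to the X, was at an FPKM of 48.7 and 49.7 at 36 h and 37.1 and 42 at 72 h. Unr, the cofactor of Sxl in blocking msl-2 translation, had the highest ratio of the 11 at 72 h, 0.51, with an FPKM of 47.8 in wild type and 68.3 in the recovery group. Relative to genes of similar length, the ratios of the 10 with a known length at 72 h lay between -0.32 and 0.10.

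Among 8 genes of neural sex differentiation 7 were found and 6 passed the filter, and 0 reached 2-fold between genotypes. lola, a transcription factor of which isoforms act with Fru, had an FPKM of 197 in wild type and 243 in the recovery group at 72 h. retn, a repressor of male courtship behaviour in females, was at 1.57 and 2.52, a log2 ratio of 0.68. With 5.55% of all genes lower and 2.14% higher at 72 h, and 3.55% and 2.3% at 36 h, counts of 0 in lists this short are near the background and are no result about the lists.

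The median log2 ratio of knockdown over wild type was 0.02 over 1571 X-linked genes at 36 h and 0.02 over 1573 at 72 h. The large autosomal arms had medians of 0.00 and -0.02, so that X minus autosomes was 0.02 at 36 h and 0.05 at 72 h. The median FPKM of X-linked genes at 72 h was 15.5 in wild type and 16.1 in the recovery group, beside 16.5 and 16.5 for the autosomes. At 72 h the quartiles of X-linked ratios were -0.24 and 0.33, and those of autosomal ratios -0.27 and 0.23.

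**Figure D5:**
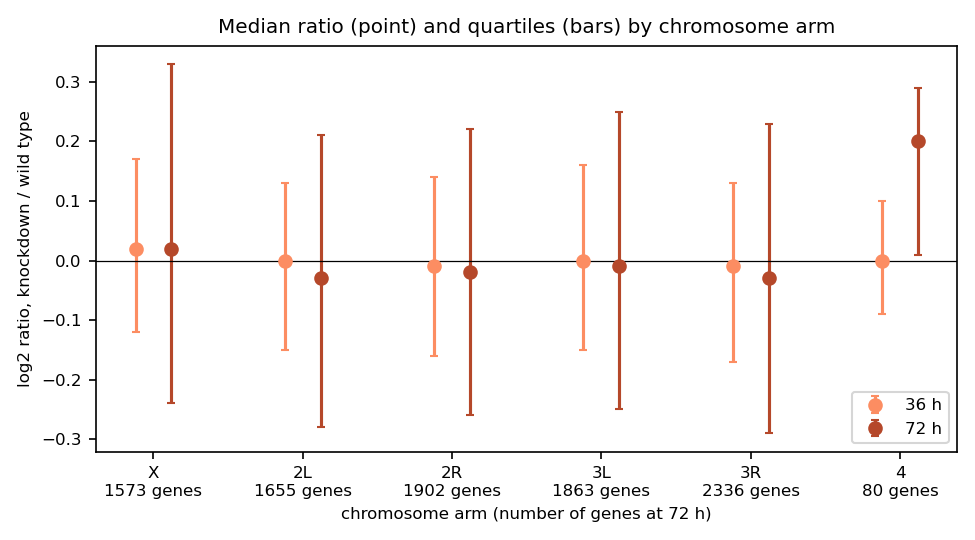
Median (points) and quartiles (bars) of the log2 ratio of knockdown over wild type for genes of each chromosome arm (horizontal axis) at 36 h and 72 h. The X median is 0.02 at both ages and its quartiles overlap those of every other arm, and chromosome 4 with 80 genes has a median of 0.20 at 72 h.

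With age, 8 of the 10 genes had lower values at 72 h than at 36 h in both genotypes, against a background that also shifted. The median log2 ratio of 72 h over 36 h was -0.40 over all genes in either genotype. The tables of the ages may have been normalized separately, so changes with age are best read relative to this shift. In wild type 2 of the 10 genes, mof and dsx, were at least 2-fold lower and 0 at least 2-fold higher, where 25.6% of all genes were lower and 13.8% higher. In knockdown animals 5 were lower and 0 higher, where 28.3% and 14.7% of all genes were. The 5 were roX1, roX2, msl-2, mof and dsx.

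Relative to the median of all genes, mof was at -1.65 in wild type and -1.64 in knockdown animals, and dsx at -0.78 and -1.03. Both were thus lower with age in both genotypes. roX1, with a log2 ratio of -0.30 in wild type, was at 0.10 relative to the median there and at -1.04 in knockdown animals, and roX2 was at -0.14 and -1.70. The roX RNAs were thus near the median of all genes in the wild type and below it in knockdown animals, and roX1 lay above that median in the wild type although its own level was lower at 72 h. Sxl stood at 0.65 and 1.18 above the median and fru at 0.55 and 1.25, wild type first. msl-2 was at -0.29 and -0.76, msl-1 at -0.51 and -0.46, msl-3 at 0.30 and 0.16 and mle at 0.19 and 0.37.

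Among partners and cofactors, the shares that were at least 2-fold lower with age in wild type were near the 25.6% of all genes, so these counts are no result about the lists. They were 3 of 11 MSL partners, 3 of 10 cofactors and regulators of Sxl and 1 of the 4 partners of the switch. The list of neural sex differentiation had a higher share, 3 of 6 (retn, Abd-B and bab1), which was not tested. Top2, a DNA topoisomerase, and Mtor were among the MSL partners. The FPKM of Mtor, a nuclear pore protein, was 34.5 at 36 h and 7.29 at 72 h in wild type, and 37.3 and 7.75 in knockdown animals. Among the cofactors of Sxl, vir, nito and YT521-B were at least 2-fold lower in both genotypes, whereas fl(2)d, a partner of vir, had log2 ratios of -0.60 and -0.38. vir was at an FPKM of 15.3 and 4.23 in wild type. dpn was at least 2-fold higher, from 0.895 to 2.61 in wild type. tra was the 1 of the 4 partners of the switch that was at least 2-fold lower, with log2 ratios of -1.45 and -1.43.

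The genes with the pattern most like that of roX1 over the 4 groups were resilin, CG12379, CG12206, CG9117 and CG42848, and those most like roX2 were CG11882, CG4546, ETH, sug and CG42272. Likeness was the smallest Euclidean distance between log2 FPKM profiles, each centred on its mean, among 9385 genes. It ran from 0.092 for resilin to 0.2 for CG42848 and from 0.12 for CG11882 to 0.3 for CG42272. resilin, the gene of an elastic cuticle protein, had an FPKM of 20.4, 19.8, 15.3 and 7.33 in the order wild type and knockdown at 36 h, then at 72 h. CG11882 had 13.8, 11.7, 9.16 and 3 in the same order. Of the 10 genes named, CG12379 and CG12206 are on the X. The distance between roX1 and roX2 themselves was 0.63. With 4 values per gene, such likeness is a description of the profiles alone.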

How the data were processed

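Values were taken from the CuffDiff tables of both ages. Per the labels and methods, the authors aligned reads to dm3 with TopHat2 2.0.11, and Cuffdiff 2.2.0, with geometric normalization, gave the FPKM that they deposited, 1 for each gene in a group of 2 pooled replicates (versions from the submitters' processing notes). The gene annotation is not given in the sources used here. The log2 fold changes, test statistics, p-values and q-values of these tables, and the EdgeR tables (log2 fold change, p-value and FDR, with a mean log2 CPM over all libraries), are the authors' own comparisons and were not used. Depth per library cannot be read from pooled FPKM.

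Log2 ratios were computed without a pseudocount, and genes needed a mean FPKM of at least 1 over the 4 groups. With 1 pooled value per group no test was run, and a ratio counted as moved under an alternative where it shifted by 1.5-fold or more. The 10 members and the gene lists were chosen with earlier results of these data known. The rule for named genes was all members, list genes past 2-fold, otherwise up to 4 of a list by mean FPKM, and the 5 genes most like each roX RNA. The genes da, sisA and Pof, outside this rule, and fl(2)d, within it, were chosen after their values were seen. Not every gene that met the rule is named. Gene IDs came from the given name table, locus starts were counted from 1, and the longest transcript per gene was taken from Ensembl 115 for 98.2% of 9668 genes. Centring on length used the median of 20 bins. Alternatives were pseudocounts of 0.1 and 1, a minimum mean FPKM of 5 or none, a fold of 1.5, and centring on all genes, length or level. The functions were tested on simulated data. Python 3.11.15, pandas 2.3.3, NumPy 2.4.6 and matplotlib 3.10.9 were used.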

Additional observations from a re-analysis of the deposited data

How the results depend on the processing

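Over the 10 genes, no log2 ratio between genotypes moved by 1.5-fold or more under a pseudocount of 0.1 or 1. The same held for centring on transcript length or mean FPKM. Centring on all genes or on the neuron markers, the latter chosen after seeing the data, subtracts 1 constant from every gene. Each constant was smaller than 1.5-fold, so these settings could not move a ratio that far. Relative to the neuron markers, Sxl at 72 h still went from 0.63 to 0.08 and fru from 0.90 to 0.35. The log2 ratio of roX1 at 72 h ranged from -1.72 to -1.08 and that of roX2 from -2.32 to -1.57. The 220 values over all contrasts, those between ages included, hold 40 centred on all genes and 20 relative to the neuron markers. Of the 220, 214 moved by less than 1.5-fold, 6 moved by more and 0 of those past 2-fold changed sign. Small ratios did. At 72 h msl-1 went from 0.14 to -0.14, mle from 0.11 to -0.04 and dsx from 0.10 to -0.26 relative to length, and these and mof (0.20 to -0.35) were below 0 relative to the neuron markers. The 6 larger moves were those of msl-1, mof and dsx between ages when centred on mean FPKM, where the median over the 10 genes in knockdown animals went from -1.01 to -0.29. The count of genes past 2-fold depended on the filter. At 36 h it was 554, and 1371 with no filter, 264 with a minimum mean FPKM of 5, 306 with a pseudocount of 1 and 1137 at a fold of 1.5. At 72 h it was 729, and 1852, 317, 393 and 1752 in the same order. Between ages in wild type it was 3731, and 5816 at a fold of 1.5. No paired analysis was possible because each group has 1 pooled value, which also left no replicate to leave out. Pooled FPKM carry no depth, so low values such as those of the Y-linked genes have no interval.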

Other observations

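MOF also works outside dosage compensation, in the NSL complex, which acts at promoters in both sexes. Of 7 NSL genes 7 were found, and 0 reached 2-fold between genotypes at either age, a count near the background for so short a list, with a median log2 ratio of 0.05 at 36 h and -0.03 at 72 h. nsl1 (listed as CG4699) had the highest ratio at 72 h, 0.36, at an FPKM of 24.7 in wild type and 31.6 in the recovery group. wds, the WD40 repeat subunit, had the lowest, -0.23, at 11.5 and 9.81. Relative to genes of similar length the 7 ratios at 72 h lay between -0.24 and 0.03.

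Chromosome 4 has a chromosome-wide protein of its own, Pof. The FPKM of Pof was 13.6 in the wild type against 14.8 under knockdown at 36 h, and 12.8 and 12.3 at 72 h. The 80 genes of this chromosome had a median log2 ratio of 0.00 at 36 h and 0.20 at 72 h, and of 0.03 at 72 h relative to genes of similar length. Their median FPKM at 72 h was 65.6 in wild type and 78.2 in the recovery group.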
